A study of Mus musculus with 2 samples.

Results

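The genes described here are 45 genes of the type I interferon response, taken from both count matrices by symbol from a list of 45 names. All 45 were listed in both libraries, among 23197 genes listed in both. Each library holds single cells of the colon (proximal and distal parts and the rectum) pooled from 3 C57BL/6 mice aged 8 to 10 weeks, and all animals received DSS (dextran sulfate sodium), which damages the gut lining and brings on colitis. One library is from wild-type mice (WT) and 1 from mice labelled Elf-1 KO (Elf-1-/-), a knockout of the ETS-family transcription factor Elf1. No untreated animals are among the samples, the sources used here do not give the deleted part of Elf1 or the dose and days of DSS, and no file ties a cell to a mouse. With 1 library a group there was no test and no p-value. All intervals below are 95% intervals for counting error only and do not cover the spread between mice.

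Type I interferons, such as interferon beta, bind the receptor made of Ifnar1 and Ifnar2, which signals through the kinases Jak1 and Tyk2 to transcription factors that include Stat2 and Irf9. These factors bind a short DNA element, the interferon-stimulated response element, in front of many genes whose products sense viral RNA and DNA, block viral growth or tag proteins with the ubiquitin-like protein Isg15. In the gut these genes are switched on in epithelium, stroma and immune cells after contact with microbes or injured tissue, and interferon gamma and type III interferons induce many of the same genes.

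Promoter windows were searched for the letters of such an element. RefSeq promoters on the GRCm38.p6 build, from 250 bases before to 50 after the start, were found for 34 of the 45 members. The letters GAAANNGAAA, a form of that element, were searched on both strands, with overlapping matches allowed. Counted by gene, also where a gene has several windows, they were found for 16 of these 34 members (47.1%). Among all genes with a promoter and listed in both libraries, they were found for 534 of 13768 (3.88%). Counted by window, they stood in 1131 of all 32851 (3.44%). Of 54 other interferon-stimulated genes with a promoter, 27 (50%) held them. The 250 bases before the start are printed 5′ to 3′ on the gene's strand for 4 members on which the results turn, with matches in capitals. Isg15 (chr4:156200819-156201068, minus strand) encodes the ubiquitin-like tag and holds 3 overlapping matches, which begin 78 to 66 bases before the start.
Isg15: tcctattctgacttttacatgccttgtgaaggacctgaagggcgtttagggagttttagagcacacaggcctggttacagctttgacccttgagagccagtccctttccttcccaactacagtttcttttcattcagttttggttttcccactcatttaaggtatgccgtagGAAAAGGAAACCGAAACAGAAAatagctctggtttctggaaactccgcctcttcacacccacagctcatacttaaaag
Ifit1 (chr19:34640639-34640888, plus strand), which encodes a protein that binds viral RNA, holds 2 matches in the other orientation, at 104 and 85 bases before the start.
Ifit1: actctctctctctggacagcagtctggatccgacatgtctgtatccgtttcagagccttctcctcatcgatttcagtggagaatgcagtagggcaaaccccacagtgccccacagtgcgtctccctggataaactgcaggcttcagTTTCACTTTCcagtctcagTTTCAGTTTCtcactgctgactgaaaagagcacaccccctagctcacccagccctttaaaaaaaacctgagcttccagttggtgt
Its neighbour Ifit3 (chr19:34583279-34583528, plus strand) holds 2 matches in that same orientation, at 156 and 122 bases.
Ifit3: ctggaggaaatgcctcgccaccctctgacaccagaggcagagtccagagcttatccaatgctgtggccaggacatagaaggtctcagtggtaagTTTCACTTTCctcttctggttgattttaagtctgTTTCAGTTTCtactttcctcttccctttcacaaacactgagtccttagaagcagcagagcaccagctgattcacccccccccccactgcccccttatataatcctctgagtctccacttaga
Slfn2 (chr11:83064862-83065111, plus strand), a Schlafen gene needed for the quiescence of T cells, is shown because its level went the other way in several cell classes, and its window holds no match.
Slfn2: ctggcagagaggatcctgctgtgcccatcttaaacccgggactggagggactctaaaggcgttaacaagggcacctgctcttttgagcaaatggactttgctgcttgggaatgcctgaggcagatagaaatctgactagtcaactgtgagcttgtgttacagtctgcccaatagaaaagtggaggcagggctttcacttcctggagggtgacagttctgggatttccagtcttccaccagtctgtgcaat
A match is only a run of letters, and its absence from this window says nothing of the factors.

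The libraries held 8635 (WT) and 10012 (labelled knockout) barcodes with 32481613 and 39750319 unique molecular identifiers (UMIs, each counting 1 captured RNA molecule). Of these, 7718 and 9474 cells were kept (median UMIs per cell 2022.5 and 2636), and 44 of the kept barcodes occurred in both libraries. Elf1 itself was at 192 CPM (UMIs scaled to a library or class total of 1000000) in the wild-type library and 181 CPM in the other, which checks nothing while the deleted part is unknown. Cell makeup differed greatly: 1065 epithelial cells against 70, 166 neutrophils against 1257, 2536 B cells against 1012 and 1222 fibroblasts against 2780. Of the 70 epithelial cells, 57 lay in cluster 8, led by enteroendocrine genes such as Chga and Pyy, and 16 of the 18 epithelial markers had UMIs in the compartment, the goblet cell gene Spink4 among them, while the goblet cell genes Muc2 and Agr2 were at 0. No cluster of plasmacytoid dendritic cells, a major source of interferon alpha, was found. Their 10 markers, several of which other cells also express, summed to 242 and 116 CPM in myeloid cells. Among the myeloid classes, the sum was higher in the labelled-knockout library only in dendritic cells, at 235 against 445 CPM. The marker Klk1 had 4539 UMIs in the wild-type library and 3 in the other, with none in myeloid cells of the latter. The sums therefore give no direction for plasmacytoid dendritic cells. Free RNA also differed: 18 epithelial markers summed to between 400 and 553 CPM in the stromal, endothelial, myeloid and lymphoid cells of the wild-type library and to between 51.7 and 94.6 CPM in the other. The 16 neutrophil markers went the opposite way, from 343 to 1010 CPM in stromal cells and from 87.5 to 1029 CPM in lymphoid cells.

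Over all cells, the members together made up 3351 CPM (3330 to 3372) in the wild-type library and 1800 CPM (1786 to 1813) in the library labelled Elf-1 KO. The intervals do not overlap, and the sum was 1.86-fold lower (1.84 to 1.88) in the latter. Of the 45 members, 31 were at least 2-fold lower and 2 at least 2-fold higher, Slfn1 and Slfn2, each with an interval of the ratio that excludes 1, beside 18.4% and 7.25% of 15167 genes. The median log2 ratio of the members was -1.39, beside -0.25 over all genes with at least 50 UMIs. These figures mix the cell makeup with the level within cells. Ifit1bl1, a relative of Ifit1 on the same locus, had 2884 UMIs in the wild-type library and 44 in the other, and 2714 of the 2884 were in epithelial cells. The levels within each cell class are therefore the main description.

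Within every compartment the summed level of the members was lower in the labelled-knockout library when scaled to the UMIs of the compartment. In epithelial cells the sum was 4665 CPM (4614 to 4717) against 1744 CPM (1631 to 1862), or 2.68-fold lower (2.50 to 2.86). Stromal cells, which join fibroblasts with smooth muscle cells and pericytes, had 4798 CPM (4745 to 4851) against 1456 CPM (1439 to 1473), or 3.30-fold lower (3.24 to 3.35). Endothelial cells had 4356 CPM (4211 to 4506) against 1554 CPM (1491 to 1619), or 2.80-fold lower (2.66 to 2.96). In these non-immune compartments the sums of the libraries stood far apart. Among immune cells they lay closer. Lymphoid cells had 1502 CPM (1480 to 1525) against 1095 CPM (1072 to 1118), or 1.37-fold lower (1.34 to 1.41). In myeloid cells the sum was 4591 CPM (4515 to 4668) against 3837 CPM (3790 to 3884), 1.20-fold lower (1.17 to 1.22), a direction that flips under scaling by trimmed means (TMM), where the log2 ratio is 0.14. TMM moved the median of all genes by -0.36 in epithelial, 0.37 in stromal, 0.20 in endothelial, 0.40 in myeloid and 0.10 in lymphoid cells on the log2 scale. It left the other sums lower, at log2 ratios of -1.78 in epithelial, -1.35 in stromal, -1.29 in endothelial and -0.35 in lymphoid cells.

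A few abundant members carry much of these sums. Ifi27l2a, which encodes a small mitochondrial membrane protein induced by interferon, held 60.7% of the stromal sum in the wild-type library and 34.8% in the other, and without it the stromal sum was 1.98-fold lower. Slfn2 held 19.2% of the myeloid sum in the wild-type library and 43.8% in the other, and without it the myeloid sum was 1.72-fold lower. Leaving out the 3 members with most UMIs, Ifi27l2a, Slfn2 and Lgals3bp, a choice made after their values were seen, gave 42 members. Their sum was 4-fold lower in epithelial cells (3.66 to 4.38), 2.87-fold in stromal (2.79 to 2.95), 3.12-fold in endothelial (2.94 to 3.32), 1.65-fold in myeloid (1.61 to 1.70) and 1.45-fold in lymphoid cells (1.40 to 1.49). By class, the 42 members were 1.88-fold lower in macrophages and monocytes, 1.99-fold in neutrophils, 1.95-fold in T and innate lymphoid cells, 1.78-fold in plasma cells, 1.44-fold in dendritic cells and 1.09-fold in B cells (1.02 to 1.16).

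**Figure D1:**
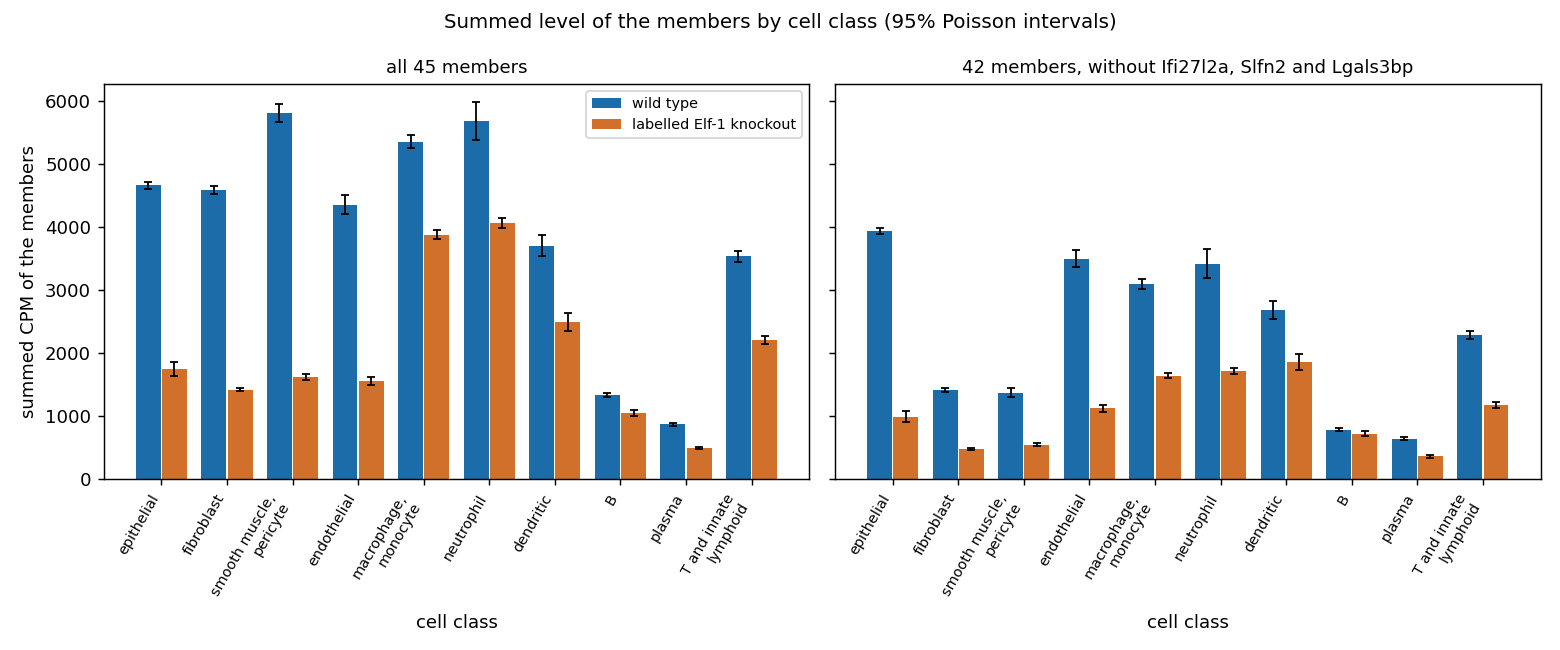
Summed CPM of the members (vertical axis) by cell class in the wild-type library (blue) and the library labelled Elf-1 KO (orange), for all 45 members on the left and for 42 on the right; bars start at 0 and error bars are 95% Poisson intervals for counting error. The wild-type bar is the higher in all 10 classes on both sides, and the bars of B cells are the closest pair on the right, at 781 and 720 CPM.

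The members' sum in the wild-type library was spread over compartments, unlike the epithelial markers. The epithelial markers in wild-type stromal cells stood at 0.914% of their epithelial level, whereas the members' sum there was 103% of the epithelial one. In endothelial cells these shares were 0.995% and 93.4%, in myeloid cells 1.26% and 98.4%, and in lymphoid cells 1.03% and 32.2%. The stromal share rests largely on Ifi27l2a, which held 60.7% of the wild-type stromal sum. For the 42 members, wild-type sums were 3941 CPM in epithelial, 1402 in stromal, 3499 in endothelial, 2779 in myeloid and 964 in lymphoid cells. Neutrophil markers, at 1010 CPM in stromal and 1904 CPM in endothelial cells of the labelled-knockout library, were higher there than in the wild-type library, at 343 and 204 CPM. Their part in the members' levels was not tested.

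Before the ratios, the levels of the 10 members with the most UMIs show where each gene was read, over 9 classes of at least 100 cells in both libraries. Ifi27l2a was highest in smooth muscle cells and pericytes (4202 CPM) and fibroblasts (2650 CPM) of the wild-type library, followed by macrophages and monocytes (939 CPM) and T and innate lymphoid cells (787 CPM), and was lowest in plasma cells (167 CPM). Neutrophils (518 CPM), endothelial cells (505 CPM) and dendritic cells (463 CPM) could not be ordered, as neighbours' intervals overlap. In the labelled-knockout library smooth muscle still led at 711 CPM, but fibroblasts at 463 CPM overlapped with T and innate lymphoid cells at 489 CPM. Slfn2 was highest in neutrophils, at 1732 and 2023 CPM (WT and labelled knockout, in that order from here on). Macrophages and monocytes came next at 1029 and 1594 CPM. Endothelial cells stood at 249 and 118 CPM, B cells at 163 and 171 CPM, fibroblasts at 21.8 and 66.6 CPM and plasma cells at 14.2 and 19.7 CPM. Lgals3bp, which encodes a secreted glycoprotein that binds galectins, was highest in fibroblasts at 511 and 414 CPM and lowest in B cells (18.2 and 25.7 CPM) and neutrophils (19.6 and 14.8 CPM), whose intervals overlap within each library. Bst2, or tetherin, which holds budding viruses on the cell surface, was highest in endothelial cells at 716 CPM in the wild-type library. Its interval there lay above those of the other 8 classes, whereas at 187 CPM in the other library it overlapped with dendritic cells at 181 CPM.

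Isg15 was highest in T and innate lymphoid cells of the wild-type library at 487 CPM, overlapping neutrophils at 393 CPM. In the labelled-knockout library dendritic cells came first at 434 CPM and T and innate lymphoid cells next at 196 CPM. In dendritic cells Isg15 was not lower in the labelled-knockout library, with 337 CPM (289 to 390) against 434 CPM (377 to 498), while B cells stood at 18.2 and 18.7 CPM. Samd9l, which restricts poxviruses, was highest in neutrophils (247 and 238 CPM) and B cells (151 and 143 CPM), and both pairs of intervals overlap. Zbp1, a sensor of Z-form nucleic acids, led in macrophages and monocytes at 139 CPM in the wild-type library, overlapping T and innate lymphoid cells at 111 CPM. In the other library it was at 61.7 CPM in neutrophils, 50.7 CPM in T and innate lymphoid cells, 50 CPM in plasma cells and 47.8 CPM in macrophages and monocytes, with overlapping intervals and so no order. Irf7, the transcription factor that amplifies interferon production, was at 142 CPM in macrophages and monocytes and 91.8 CPM in dendritic cells, and at 54.7 and 29.8 CPM in the labelled-knockout library. Isg20, an exonuclease that degrades single-stranded RNA, was at 153 and 72.3 CPM in neutrophils and 105 and 35.3 CPM in plasma cells. Rtp4, a chaperone that also restricts flaviviruses, was highest in neutrophils (236 and 135 CPM) and nearly unread in plasma cells, with 1.07 and 0.252 CPM.

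**Figure D2:**
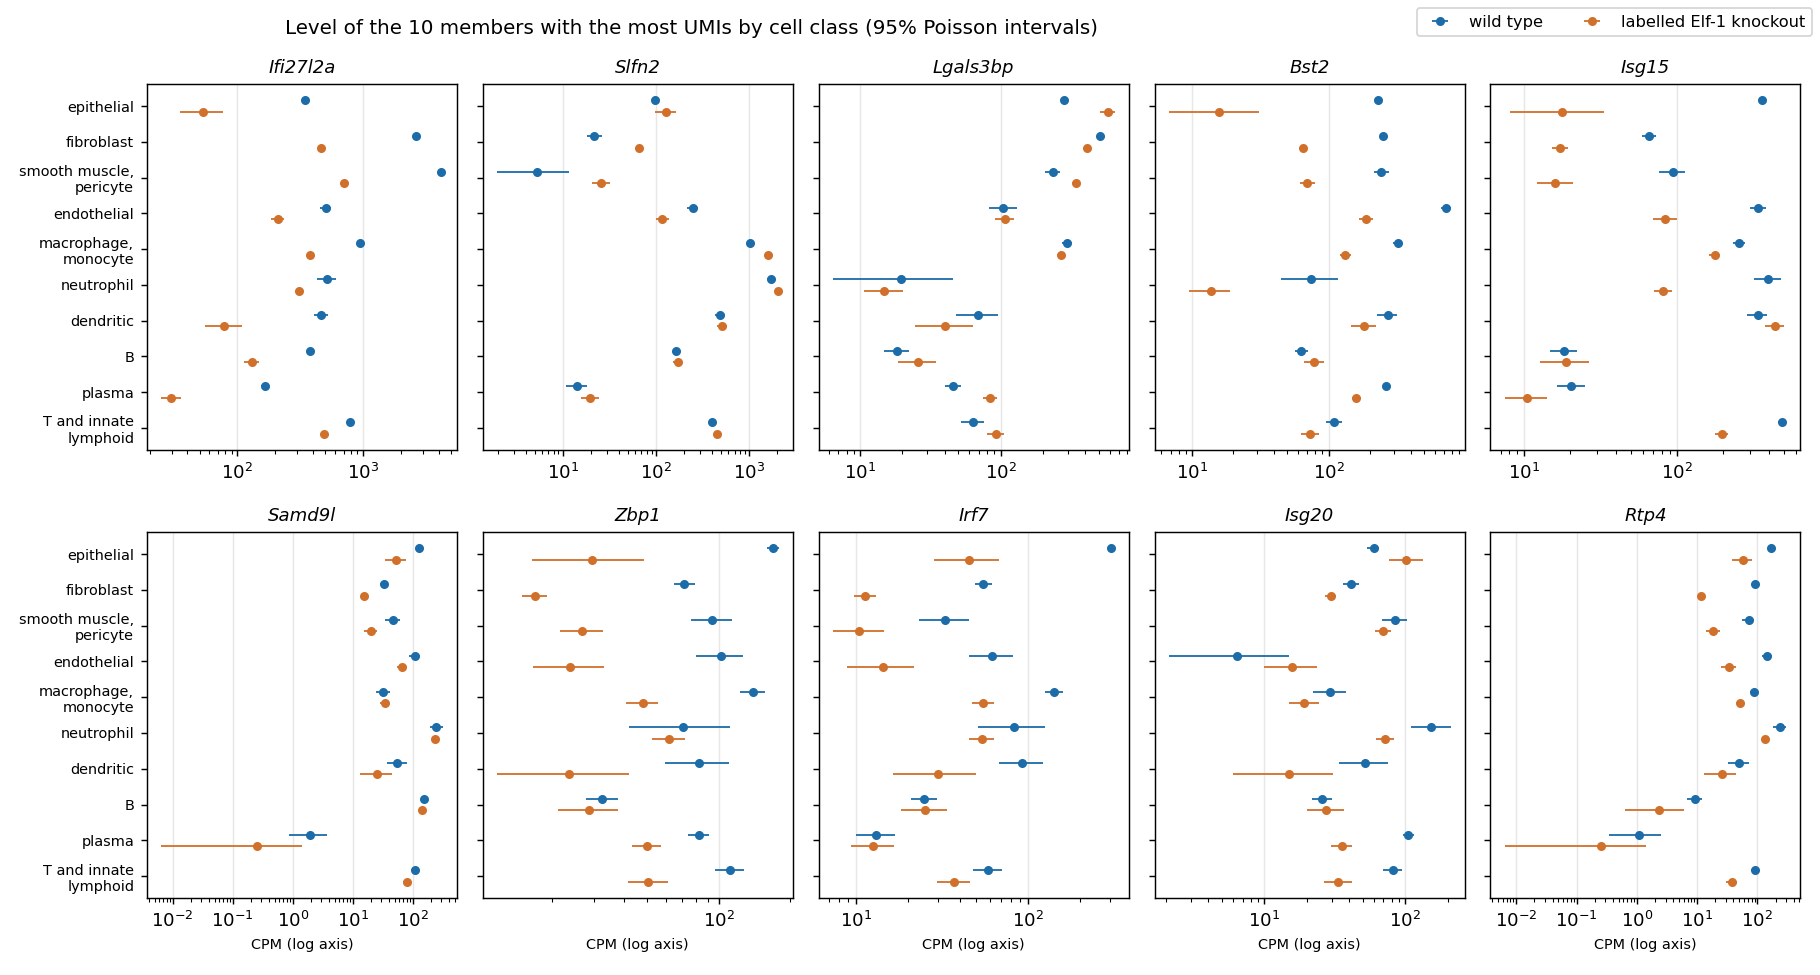
CPM (horizontal log axis, a separate range in each panel) of the 10 members with the most UMIs in 10 cell classes; points are the wild-type library (blue) and the library labelled Elf-1 KO (orange), and bars are 95% Poisson intervals. The orange point of Ifi27l2a lies left of the blue in all 10 classes, whereas Slfn2 in fibroblasts moves to the right, from 21.8 to 66.6 CPM.

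In epithelial cells the interferon response genes were much lower in the labelled-knockout library, led by the Ifit family, Isg15, Trim30a and Oas1a, but the cells compared were different kinds of epithelium. Of 45 members, 43 had at least 50 UMIs over both libraries (Slfn1 and Ifi204 did not). Of these, 32 were at least 2-fold lower with an interval that excludes 1, beside 19.5% of all 9792 genes with that many UMIs, and 2 were higher, beside 15.8%. The median log2 ratio of the 43 was -1.76 and that of all genes -0.11. Most wild-type epithelial cells, 909 of 1065, lay in cluster 4, led by colonocyte genes such as Car1 and Aqp4, which held 13 cells of the other library.

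Isg15 had 358 CPM (344 to 373; 2451 UMIs) in wild-type epithelium and 17.6 CPM (8.06 to 33.5; 9 UMIs) in the other library. The intervals lie far apart, at a ratio of 20.3-fold (10.7 to 44.5). Ifit1bl1 went from 397 CPM (382 to 412) to 17.6 CPM (8.06 to 33.5), 22.5-fold lower (11.8 to 49.3). Oas1a, an enzyme that makes the oligoadenylate signal that activates an RNA-degrading enzyme, was at 182 CPM (172 to 193) against 11.8 CPM (4.31 to 25.6), 15.5-fold lower (7.10 to 42.3). The other 3 of the lowest 6 members rested on at most 3 UMIs in the labelled-knockout library, so that only a wide interval can be given.

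Ifit3, a partner of Ifit1 in RNA binding, had 294 UMIs against 1 (43.0 and 1.96 CPM; ratio 21.9, 3.91 to 870). Trim30a, a regulator of Toll-like receptor signalling, had 477 UMIs against 2 (69.7 and 3.92 CPM; ratio 17.8, 4.90 to 147), and Ifit2, which is linked to apoptosis and RNA binding, had 655 against 3 (95.8 and 5.88 CPM; ratio 16.3, 5.55 to 79.2). For each of them the wild-type interval lies above that of the other library. The members that were higher were Lgals3bp, at 284 CPM (271 to 297) against 578 CPM (514 to 648), 2.04-fold (1.80 to 2.30), and Rsad2, or viperin, an enzyme that makes a chain-terminating nucleotide, at 17.8 CPM (14.8 to 21.3) against 50.9 CPM (33.3 to 74.6), 2.86-fold (1.79 to 4.39). The intervals of neither gene overlap between libraries. In these epithelial cells the neutrophil markers summed to 289 CPM in the wild-type and 10093 CPM in the labelled-knockout library, and their part in the higher values was not tested. Within cluster 8, the only epithelial cluster with at least 20 cells in both libraries (22 and 57), the sum of the 45 members was 2471 CPM against 1724 CPM, 1.43-fold lower (1.27 to 1.62), a smaller ratio than the 2.68-fold of the whole epithelium.

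In stromal cells most members with enough UMIs were lower in the labelled-knockout library. Of the members, 39 had at least 50 UMIs (Ifit3b, Ifit1bl1, Mx1, Oas3, Slfn1 and Epsti1 did not), and 29 of the 39 were lower, beside 13.9% of 11883 genes, and 1 higher, beside 3.41%. Their median log2 ratio was -1.80, beside -0.33 over all genes. Ifit3 stood at 31.5 CPM (27.4 to 36.1) against 1.12 CPM (0.699 to 1.69), 28.3-fold lower (18.2 to 46.1), with a UMI in 5.91% of wild-type stromal cells and 0.402% of the others. Ifit1 was at 31.8 CPM (27.7 to 36.4) against 3.25 CPM (2.50 to 4.15), 9.81-fold lower (7.38 to 13.2). Ifi44, an interferon-induced protein linked to antiviral and antiproliferative effects, was at 15.7 CPM (12.8 to 19.0) against 1.01 CPM (0.620 to 1.57), 15.5-fold lower (9.52 to 26.4). All 3 pairs of intervals are separate. Oas2, another oligoadenylate synthetase, was at 6.79 against 0.710 CPM (9.56-fold lower, 5.15 to 18.9) and Oas1a at 25.7 against 3.15 CPM (8.16-fold, 6.07 to 11.1). Rtp4, at 87.1 against 13.0 CPM, was 6.71-fold lower (5.78 to 7.80). Near the threshold, Ifi35, an interferon-induced leucine zipper protein, had a log2 ratio of -1 after rounding and was counted as lower, and Ifih1, or MDA5, the sensor of long double-stranded RNA, had -0.98 and was not.

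Slfn2 was the member that was higher in stromal cells, at 19.0 CPM (15.8 to 22.6) against 59.5 CPM (56.2 to 63.0), 3.13-fold (2.6 to 3.79). Its level in stromal cells equalled 1.10% of that in neutrophils of the wild-type library and 2.94% in the other, while the neutrophil markers stood at 0.224% and 0.380% of their neutrophil level. The part of free neutrophil RNA in this difference was not tested.

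Fibroblasts made up most of the stromal cells, and 30 of 39 members with at least 50 UMIs were lower, beside 13.4% of all genes, and 1, Slfn2, was higher, beside 3.34%, at 21.8 CPM (18.1 to 26.1) against 66.6 CPM (62.7 to 70.7). Ifit3 was 25-fold lower (15.5 to 42.7), Ifi44 15.1-fold (9.27 to 25.7) and Ifit1 11.4-fold (8.22 to 16), from 29.2, 18.5 and 32.9 CPM in the wild-type library. The clusters behind the class differed, since 862 of 1222 wild-type fibroblasts lay in cluster 5, which held 8 of the other library, and 917 and 1315 of the 2780 lay in clusters 12 and 20. In smooth muscle cells and pericytes 24 members had enough UMIs, of which 12 were lower, beside 11%, and 1 higher, beside 5.89%. Their Ifit3 had 48 UMIs in 401 cells against 3 UMIs in 1200 cells (42.8 and 0.871 CPM; ratio 49.2, 15.8 to 247). Ifi27l2a was at 4202 CPM (4083 to 4324) against 711 CPM (684 to 740), 5.91-fold lower (5.62 to 6.20), and Isg15 at 93.7 against 16 CPM, 5.86-fold lower (4.19 to 8.28). For both the wild-type interval lies above the other. Slfn2 was read at 6 UMIs against 89 (5.35 and 25.8 CPM; 4.83-fold higher, 2.13 to 13.5), but in each library this class had the lowest mean of Slfn2 per cell of the named classes, so these UMIs and free RNA cannot be told apart. Here too the clusters differed, with 276 of 401 wild-type cells in cluster 7 and 1041 of 1200 in cluster 14.

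Endothelial cells, whose clusters 18 and 23 were filled by both libraries (128 and 185 cells, 102 and 190 cells), had lower levels of most members with enough UMIs in the labelled-knockout library. Of 28 members with at least 50 UMIs, 22 were lower, beside 6.62% of 5921 genes, and none was higher, beside 3.99%. The median log2 ratio was -1.30, beside -0.08 over all genes. Ifit3 stood at 187 CPM (158 to 220) against 13.6 CPM (8.31 to 21.0), 13.7-fold lower (8.57 to 23.1), Ifit1 at 158 CPM (132 to 189) against 16.3 CPM (10.5 to 24.3), 9.71-fold lower (6.23 to 15.7), and Ifit2 at 82.4 CPM (63.5 to 105) against 8.84 CPM (4.71 to 15.1), 9.32-fold lower (5.09 to 18.5). A UMI of Ifit3 was found in 17.4% of wild-type endothelial cells and 1.60% of the others. Ifi44 was at 64.4 against 12.2 CPM (5.26-fold lower, 3.02 to 9.58). Oasl2, an OAS-like protein, was at 51.5 against 10.2 CPM (5.05-fold, 2.73 to 9.84), and Irf7 at 61.8 against 14.3 CPM (4.33-fold, 2.54 to 7.61). For all 6 the 2 intervals are apart. Slfn2, higher in stroma, was lower here, at 249 CPM (215 to 286) against 118 CPM (101 to 137), 2.11-fold (1.71 to 2.61). The summed level of all members was 3.04-fold lower in cluster 18 and 2.67-fold lower in cluster 23.

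In myeloid cells, of which neutrophils were 166 of 948 in the wild-type library and 1257 of 2464 in the other, some members were lower, most passed in neither direction, and Slfn1, a Schlafen gene, was higher. Of 42 members with at least 50 UMIs (all but Ifit3b, Ifit1bl1 and Ifi44), 18 were lower, beside 14% of 8925 genes, and 1 higher, beside 6.13%, and the median log2 ratio was -0.85, beside -0.30. Under TMM scaling, 7 were lower and 3 higher. The shares over all genes given above are for unscaled ratios, so these 2 counts cannot be set beside them. Ifit2 was at 55.2 CPM (47.2 to 64.3) against 8.45 CPM (6.38 to 11), 6.54-fold lower (4.80 to 9.01), Oas1a at 81.0 CPM (71.2 to 91.8) against 16 CPM (13.1 to 19.3), 5.07-fold lower (4.02 to 6.43), and Epsti1, an interferon-induced gene of macrophages, at 163 CPM (149 to 178) against 44.5 CPM (39.6 to 49.9), 3.67-fold lower (3.17 to 4.26). These 3 pairs of intervals are apart. Ifit3 was at 19.5 against 3.62 CPM (5.39-fold lower, 3.30 to 9.06), and Mx1, a dynamin-like GTPase that blocks influenza virus, at 18.2 against 3.62 CPM (5.02-fold, 3.06 to 8.49). Usp18, the protease that removes Isg15 from proteins and dampens receptor signalling, was at 27.1 against 9.20 CPM (2.95-fold, 2.09 to 4.17). Slfn1 was at 56.9 CPM (48.7 to 66.0) against 140 CPM (131 to 150), 2.47-fold higher (2.09 to 2.92). Within classes this difference was small: Slfn1 stood at 318 and 292 CPM in neutrophils and at 43.0 and 45.8 CPM in macrophages and monocytes, with overlapping intervals in both.

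Macrophages and monocytes lay in the same clusters in both libraries (244 and 303 cells against 380 and 603 in clusters 0 and 10). Of 41 members with enough UMIs, 21 were lower, beside 6.66% of all genes, and none higher, beside 4.55%, with a median log2 ratio of -1.02, beside -0.12. Oas1a stood at 110 CPM (95.7 to 126) against 24.3 CPM (19.4 to 30.1), 4.52-fold lower (3.50 to 5.89), and a UMI was found in 25% of cells against 6.71%. Ifit3 was at 22.0 against 4.01 CPM, 5.49-fold lower (2.94 to 10.9), and Ifit2 at 68.2 against 13.2 CPM, 5.17-fold lower (3.67 to 7.41). These wild-type intervals lie above the others. Slfn2 went from 1029 CPM (984 to 1076) to 1594 CPM (1552 to 1637), which is under 2-fold, in cells whose neutrophil markers summed to 1023 and 8919 CPM. Ifi204, a DNA sensor of the p200 family, was at 335 and 265 CPM.

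Neutrophils formed 1 cluster. Of 27 members with enough UMIs, 10 were lower, beside 8.12%, and none higher, beside 6.46%, with a median log2 ratio of -0.86, beside -0.01. Slfn5 was at 90.3 CPM (57.2 to 136) against 13.3 CPM (9.28 to 18.5), 6.78-fold lower (3.82 to 11.8), Ifi204 at 106 CPM (69.9 to 154) against 16 CPM (11.5 to 21.6), 6.63-fold lower (3.93 to 11), and Bst2 at 74.6 CPM (44.9 to 116) against 13.7 CPM (9.60 to 19.0), 5.44-fold lower (2.95 to 9.74). The wild-type values rest on 19 to 27 UMIs each, and their intervals stay above the others. Rsad2, higher in epithelium, was 4.44-fold lower in neutrophils (2.82 to 6.85), at 122 against 27.4 CPM. In dendritic cells 16 members had enough UMIs, of which 3 were lower, beside 7.13%, and none higher, beside 13.4%. These were Ifi27l2a, at 463 CPM (406 to 525) against 78.8 CPM (55.5 to 109), Zbp1, at 82.2 against 23.4 CPM (3.51-fold lower, 1.78 to 7.55), and Irf7, at 91.8 against 29.8 CPM (3.08-fold lower, 1.67 to 6.05). Their median log2 ratio over the 16 was -0.57, beside 0.08 over all genes. The class mixes clusters 11 (118 and 70 cells) and 25 (32 and 134 cells). Mast cells were few, 85 and 20, and their summed level, 822 CPM (728 to 924) against 1061 CPM (774 to 1419), was the one class sum that was not lower, with overlapping intervals.

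Lymphoid cells had the lowest sums and, of the 5 compartments, the fewest members that were lower. Of 39 members with at least 50 UMIs, 8 were lower, beside 7.15% of 10580 genes, and 1 higher, beside 4.67%, and the median log2 ratio was -0.53, beside -0.16. Oas1a was at 8.46 CPM (6.89 to 10.3) against 1.14 CPM (0.522 to 2.17), 7.41-fold lower (3.75 to 16.7). Ifit1bl1 was at 8.96 CPM (7.34 to 10.8) against 3.30 CPM (2.15 to 4.83), 2.72-fold lower (1.76 to 4.35). Its wild-type lymphoid level equalled 2.26% of its epithelial level, and that of the epithelial markers 1.03%. These shares were 0.934% and 1.23% in B cells and 0.811% and 0.698% in plasma cells. In T and innate lymphoid cells they were 9.65% and 1.29%. The part of free epithelial RNA in the lymphoid difference of Ifit1bl1 was not tested. Dhx58, or LGP2, which tunes the RNA sensors, was at 4.52 against 1.78 CPM (2.55-fold lower, 1.40 to 4.97). Of these 3, all intervals are apart. Oasl2 was at 4.69 against 1.78 CPM (2.64-fold, 1.45 to 5.14), Usp18 at 7.45 against 3.42 CPM (2.18-fold, 1.40 to 3.48) and Ifit2 at 6.78 against 3.17 CPM (2.14-fold, 1.35 to 3.50). Lgals3bp was higher, at 36.1 CPM (32.8 to 39.7) against 73.7 CPM (67.8 to 79.9), 2.04-fold (1.80 to 2.32). Ifi27l2a, at 360 CPM (350 to 371) against 180 CPM (171 to 190), lay just inside the 2-fold limit with a log2 ratio of -1 after rounding and was not counted. The make-up of the compartment differed, with 2536 B cells of 3762 cells in the wild-type library and 1012 of 2279 in the other.

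Among the lymphoid classes, T and innate lymphoid cells had the most members that were lower, with 13 of 33 with enough UMIs, beside 3.59% of all genes, and none higher, beside 5.12%, with a median log2 ratio of -0.83, beside 0.07. Isg15 was at 487 CPM (456 to 520) against 196 CPM (178 to 215), 2.49-fold lower (2.22 to 2.79), and Ifit1 at 166 CPM (149 to 186) against 49.3 CPM (40.5 to 59.5), 3.38-fold lower (2.71 to 4.24). Both wild-type values are outside the intervals of the other library. Oas1a was read with 46 UMIs in 904 cells against 8 in 951 (24.5 and 3.62 CPM; 6.76-fold lower, 3.16 to 16.6), and Ifit1bl1 with 72 against 24 UMIs (38.3 and 10.9 CPM; 3.53-fold lower, 2.20 to 5.85). The Ifit1bl1 level of wild-type T and innate lymphoid cells equalled 9.65% of the epithelial level, and that of the epithelial markers 1.29%. In B cells 2 of 23 members were lower, beside 6.3%, and none higher, beside 3.97%, and the median log2 ratio was -0.03, beside -0.04 over all genes. The 2 were Ifi27l2a, at 379 CPM (363 to 396) against 130 CPM (113 to 148), 2.91-fold lower (2.54 to 3.36), and Rtp4, with 49 UMIs against 4 (9.08 and 2.33 CPM; ratio 3.89, 1.43 to 14.9). Without Ifi27l2a the B cell sum was 1.05-fold lower (0.992 to 1.11), an interval that includes 1. B cells lay mostly in cluster 1 in the wild-type library (1852 of 2536) and in cluster 2 in the other (814 of 1012). In plasma cells 4 of 18 members were lower, beside 5.94%, and none higher, beside 4.93%, with a median log2 ratio of -0.63, beside -0.07. Ifi27l2a was at 167 CPM (156 to 179) against 29.8 CPM (24.7 to 35.7), 5.61-fold lower (4.62 to 6.87). Trim30a was at 10.9 against 3.53 CPM (3.10-fold, 1.69 to 6.06) and Isg20 at 105 against 35.3 CPM (2.96-fold, 2.45 to 3.60).

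**Figure D3:**
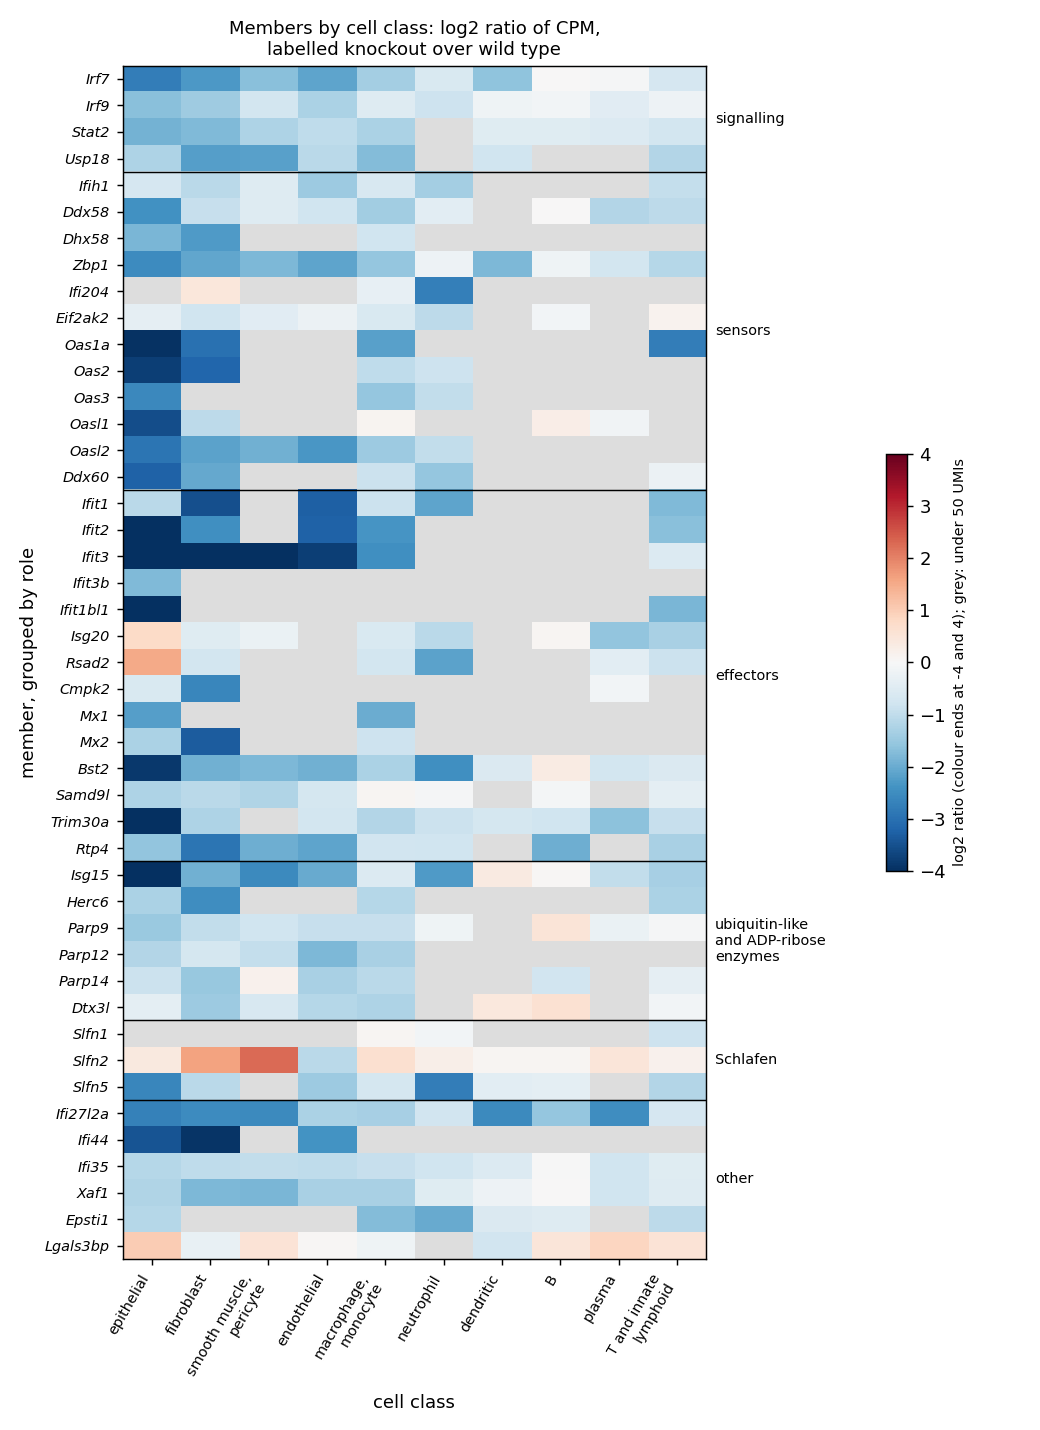
Log2 ratio of CPM, labelled knockout over wild type, of each of the 45 members (rows, grouped by role) in 10 cell classes (columns); blue is lower and red higher in the labelled-knockout library, the colours end at -4 and 4, and grey marks members under 50 UMIs. The columns of epithelium, fibroblasts and macrophages are mostly blue, B cells are pale, and the rows of Slfn2 and Lgals3bp hold the most red.

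Read by gene, the difference was spread over classes for some members and narrow for others. Over the 9 classes of at least 100 cells in both libraries, 40 of the 45 members were lower in at least 1 class, 23 in at least 3 and 7 in at least 5. Of 12817 genes with at least 50 UMIs in 1 of these classes or more, 27% were lower in at least 1 class, 2.21% in at least 3 and 0.382% in at least 5. The median gene reached 50 UMIs in 4 of the classes and the median member in 6. Ifi27l2a was lower in 7 of the 9 classes, Zbp1 in 6, and Isg15, Irf7, Bst2, Usp18 and Rtp4 in 5. The members that were lower in none were Ifit3b, which was not read deeply enough in any of them, Parp9, an ADP-ribosyltransferase partner of the ubiquitin ligase Dtx3l, the kinase Eif2ak2 (PKR), which halts translation on double-stranded RNA, Slfn1 and Lgals3bp. Slfn2 was lower in 1 class and higher in 2. Reads of close relatives such as Ifit3 and Ifit3b, Ifit1 and Ifit1bl1, Oas1a and Oas1g, or the Schlafen genes may have been assigned to either copy, since the sources used here do not say how reads that map to several genes were handled.

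By role, the signalling members Irf7, Irf9, Stat2 and Usp18, which carry the signal or feed back on it, were all 4 lower in epithelial, stromal and endothelial cells, 3 were lower in myeloid and 1 in lymphoid cells. Their summed level went from 516 to 116 CPM in epithelial and from 163 to 48.1 CPM in stromal cells. Sensors of nucleic acids and OAS enzymes (12 members) were lower in 9 of 11 with enough UMIs in epithelial, 7 of 11 in stromal, 3 of 5 in endothelial, 2 of 12 in myeloid and 3 of 10 in lymphoid cells. Over all genes the shares lower were 19.5%, 13.9%, 6.62%, 14% and 7.15% in these compartments, so that the myeloid count of sensors was near the share over all genes. Direct antiviral effectors (14 members) were lower in 10 of 14, 9 of 11, 5 of 7, 5 of 12 and 4 of 12, in the same order. Enzymes of Isg15 and ADP-ribose tagging (6 members) were lower in 3 of 6, 4 of 6, 4 of 5, 4 of 6 and none of 5. The medians of the log2 ratios were -2.58 for sensors in epithelium, -2.31 for effectors in stroma and -2.10 for effectors in endothelium, and between -0.70 and -0.42 for sensors in myeloid and lymphoid cells.

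Cell by cell, the wild-type library held many more cells that read several members at once. To compare cells at equal depth, each cell was thinned to 1000 UMIs and shallower cells were left out. Of 6586 wild-type cells, 716 (10.9%) then had UMIs of at least 5 members, against 289 of 8211 (3.52%). In epithelium the share was 29.0% (25.8 to 32.2, exact Clopper-Pearson interval; 232 of 801 cells) against 1.75% (0.04 to 9.39; 1 of 57), although without thinning the shares were 57.9% and 52.9%, at median depths of 2061 and 6414 UMIs. In endothelial cells it was 24.6% (18.7 to 31.3) against 1.91% (0.70 to 4.11). Fibroblasts had 8.82% and 0.79%, and smooth muscle cells and pericytes 5.91% and 0.62%. Macrophages and monocytes had 28.2% and 11.3%, neutrophils 27.1% and 9.59%, T and innate lymphoid cells 11.3% and 4.60%, and B cells 1.16% and 0.28%. Plasma cells had 0.33% and 0 of 309 cells, for which the exact interval reaches 1.19%. The makeup of the high cells also differed. Epithelial cells were 32.4% of those in the wild-type library (232 of 716), and neutrophils 38.8% of those in the other (112 of 289). A UMI of at least 1 member was found in 82.4% and 75.1% of cells. The 10% of cells with most member UMIs held 36.8% and 34.6% of them.

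**Figure D4:**
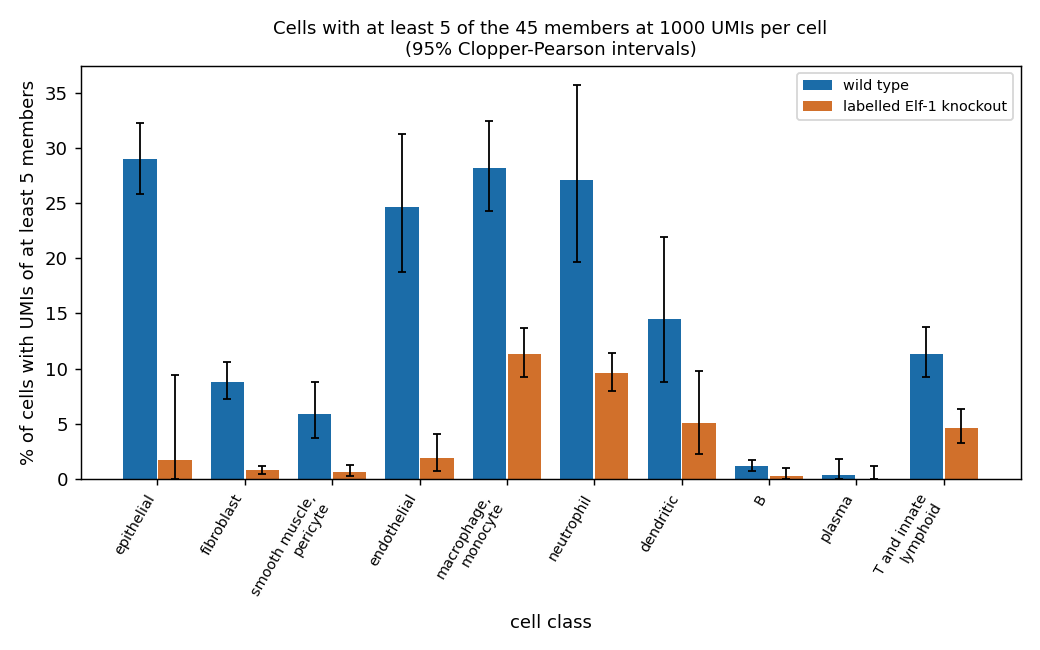
Percent of cells with UMIs of at least 5 of the 45 members after thinning each cell to 1000 UMIs, by cell class, in the wild-type library (blue) and the library labelled Elf-1 KO (orange), with 95% Clopper-Pearson intervals. Endothelial cells stand at 24.6% and 1.91%, whereas plasma cells are near 0 in both.

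Within clusters, which hold the kind of cell more nearly constant, the sum of the members remained lower in most of those that could be compared. In 24 clusters with at least 20 cells in each library the sum of all 45 members was lower in 23, in 22 of them with an interval below 1, and higher in mast cells. Log2 ratios ran from -1.60 in endothelial cluster 18 to 0.37 in mast cells. For the 42 members 23 were lower, 21 with an interval below 1. In fibroblast cluster 22 the sum was 5180 against 1899 CPM (2.73-fold lower), in cluster 12 it was 2972 against 1441 CPM (2.06-fold), and in cluster 20, 1726 against 1097 CPM (1.57-fold). In smooth muscle and pericyte cluster 14 it was 4885 against 1652 CPM (2.96-fold). T and innate lymphoid cluster 3, led by regulatory T cell genes such as Foxp3, had 4095 against 2299 CPM (1.78-fold lower, 1.70 to 1.87), and cluster 6, led by Cd8a and Nkg7, had 2980 against 2488 CPM (1.20-fold, 1.11 to 1.29). In B cell cluster 2 the ratio's interval includes 1 (1.07-fold, 0.961 to 1.18). Among the clusters not compared were 4, 5 and 7, with 13, 8 and 15 cells of the labelled-knockout library. They held 909 of 1065 wild-type epithelial cells, 862 of 1222 fibroblasts and 276 of 401 smooth muscle cells and pericytes. The fibroblast and smooth muscle clusters named above held 59 to 127 wild-type cells each. No ratio over all genes is given per cluster.

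**Figure D5:**
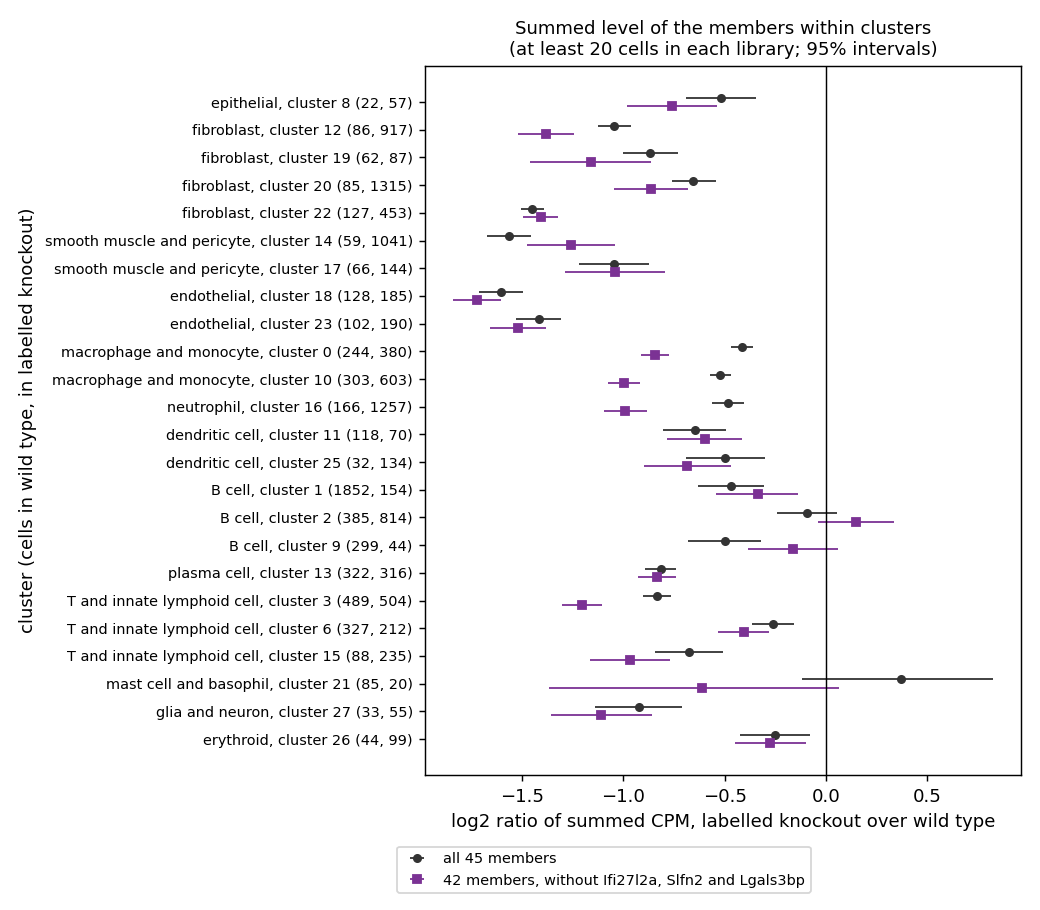
Log2 ratio of the members' summed CPM, labelled knockout over wild type (horizontal axis; the line at 0 is no difference), in 24 clusters with at least 20 cells in each library; black circles are all 45 members, purple squares 42 members, bars 95% intervals for counting error, and the cell numbers of both libraries stand in brackets. Points lie left of 0 in 23 clusters for each set, and the exceptions are mast cells for all members and B cell cluster 2 for the 42.

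Upstream of the members, transcripts of interferon genes were rare. Of 20 names of type I and III interferons, 3 were listed in both libraries. Ifnb1, which encodes interferon beta, had 59 UMIs in the wild-type and 35 in the other library. Macrophages and monocytes held 44 of them in 15 of 547 cells, with 8 in 1 cell, and 32 in 9 of 983 cells, with 12 in 1 cell. That is 23.1 and 9.16 CPM in this class, a ratio of 2.52 (1.56 to 4.10) toward the wild-type library that a few cells make up. Ifng, which encodes interferon gamma, had 654 UMIs in 167 of 904 T and innate lymphoid cells and 376 in 108 of 951, or 348 against 170 CPM. Over all cells the genes of the type I receptor were not lower. Ifnar1 stood at 35.8 and 47.9 CPM, and Ifnar2 at 43.1 and 72.7 CPM. These values mix cell makeup with level, so they do not give the direction within a class. Also over all cells, Ifnlr1, a chain of the type III interferon receptor, was at 1.51 and 0.617 CPM, and the kinase gene Tyk2 at 10.6 and 4.91 CPM. Both were at least 2-fold lower with an interval that excludes 1, in figures that mix cell makeup with level. Of the 45 wild-type UMIs of Ifnlr1, 32 were in epithelial cells. Within epithelium Ifnlr1 had too few UMIs for a call, at 4.68 and 5.88 CPM (1.26-fold higher, 0.246 to 4.02).

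Of 15 genes of nucleic acid sensing and interferon induction with enough UMIs, 3 were lower and none higher over all cells. That share was near the 18.4% of all genes, with a median log2 ratio of -0.66, beside -0.25. Within compartments 5 of 13 were lower in epithelial cells, beside 19.5% of all genes, and 5 of 14 in myeloid cells, beside 14%. In stromal cells 3 of 14 were lower (beside 13.9%), in endothelial 2 of 8 (6.62%) and in lymphoid 2 of 14 (7.15%). In epithelial and endothelial cells 1 each was higher, beside 15.8% and 3.99%. Of 6 genes of negative feedback 1, Ptpn6, was lower over all cells and none higher (median -0.06), a count near the share over all genes. Socs1, an inhibitor of Jak kinases, was at 40.0 and 37.7 CPM, and Socs3 at 348 and 485 CPM.

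Of 58 other interferon-stimulated genes that are not among the 45, 26 were lower over all cells, beside 18.4% of all genes, and 4 higher, beside 7.25%, with a median log2 ratio of -0.91. Of 42 with enough UMIs in epithelial cells, 21 were lower, beside 19.5% of all genes, and 6 higher, beside 15.8% (median -1.06). In stromal cells 23 of 47 were lower, beside 13.9%, and 2 higher, beside 3.41% (-0.99). In endothelial cells 13 of 26 were lower, beside 6.62%, and 1 higher, beside 3.99% (-1.02). In myeloid cells 18 of 48 were lower, beside 14%, and 2 higher, beside 6.13% (-0.68), and in lymphoid cells 10 of 51 were lower, beside 7.15%, and 2 higher, beside 4.67% (-0.29). The counts of higher genes in this list were thus near or under the shares over all genes. In epithelium the lowest were Sp100, a nuclear body protein, with 395 UMIs against 1, the GTPase Gbp3 with 329 against 2 and the ubiquitin ligase Rnf213 with 841 against 6. Ifitm1 and Ifitm2, which block virus entry at membranes, were higher there, at 66.5 against 778 CPM and 264 against 1270 CPM, as was the chemokine Cxcl10, at 35.4 against 255 CPM. In lymphoid cells Ifitm1 and Ifitm2 were also higher, at 51.2 against 206 CPM and 59.1 against 207 CPM. Neutrophil markers were higher too, at 289 against 10093 CPM in epithelial and 87.5 against 1029 CPM in lymphoid cells. Their part in these values was not tested, and the epithelial cells compared were of different kinds. Cxcl10 went the other way in endothelial cells, at 347 against 51.0 CPM, 6.79-fold lower (5.24 to 8.90), with Tnfsf10 (TRAIL) at 92.7 against 14.3 CPM and Mndal at 111 against 26.5 CPM, while Ifitm1 (292 against 586 CPM) and Tbk1 (18 against 61.9 CPM), the latter a kinase of the induction list, were higher.

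In stromal cells the apolipoprotein L genes Apol9a (8.60 against 0.862 CPM) and Apol9b (6.04 against 0.862 CPM) were among the lowest, and the p200-family genes Ifi205 (61.6 against 215 CPM) and Ifi207 (15.5 against 52.1 CPM) were higher. In myeloid cells Oas1g (17.5 against 1.51 CPM), Phf11a (19.5 against 2.71 CPM) and Gbp3 (109 against 15.7 CPM) were the lowest, whereas the Schlafen gene Slfn4 (147 against 474 CPM) and Trim30b (52.6 against 108 CPM) were higher. In lymphoid cells the lowest were the phosphatase gene Ptpn6 (237 against 51.3 CPM), Ms4a4c (37.3 against 12.8 CPM) and the transcription factor Irf5 (49.4 against 18.6 CPM).

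The members share genome neighbourhoods as well as promoter letters. The 5 Ifit genes lie together on chromosome 19 between positions 34550694 and 34650009 (GENCODE, GRCm38), the 5 OAS genes on chromosome 5, 6 members including Mx1, Mx2, Parp9 and Dtx3l on chromosome 16, and 7, among them the 3 Schlafen genes, on chromosome 11. Slfn2 spans positions 83065112 to 83070678 there and Slfn1 83116849 to 83122670. In epithelium, members with a GAAANNGAAA match were lower in 13 of 16 with enough UMIs (median log2 ratio -2.59) and those without in 11 of 17 (-1.21). The split was 9 of 13 (-1.68) against 12 of 16 (-1.21) in stroma, 7 of 10 (-1.45) against 10 of 12 (-1.29) in endothelium, 5 of 14 (-0.85) against 7 of 17 (-0.47) in myeloid cells and 3 of 14 (-0.62) against 2 of 16 (-0.31) in lymphoid cells. Beside these, 19.5% of all genes were lower in epithelial, 13.9% in stromal, 6.62% in endothelial, 14% in myeloid and 7.15% in lymphoid cells. Members for which no promoter was found are in neither group. Lower counts were thus not more frequent with the match in every compartment, whereas the median log2 ratio was lower with the match in all 5. Isg15, Ifit1 and Ifit3 with the matches printed above stand beside Ifit2, Ifi44 and Irf7 without one. A role of the match was not tested.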

How the data were processed

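Single cells of the colon were captured on GEXSCOPE chips, in 1 library per group. The authors deposited raw UMI counts per gene and barcode, not normalized, per the file headers and values. Reads were handled with cutadapt 1.17, STAR 2.6.1a and featureCounts 2.0.1 on GRCm38, per the submitters' processing notes; how strand and reads that map to several genes were handled is not given in the sources used.

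Kept barcodes had 500 or more UMIs, 200 or more genes and no more than 25% mitochondrial UMIs. Scrublet (expected rate 0.06) marked 2.67% of the labelled-knockout library, which were removed. As only 0.0246% were marked among wild-type barcodes, the 406 barcodes with the top 5% of scores were taken out instead. Both libraries were clustered together with scanpy 1.11.5 and igraph 0.11.9 (2000 variable genes without interferon genes, 30 components, 15 neighbours, Leiden resolution 1, 29 clusters). Clusters were named from marker lists by their mean standardised expression, a rule set after the clusters had been seen, so classes may differ from the study's. Cluster 28 (13 and 152 cells) stayed unnamed.

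UMIs were summed per class and given as CPM with exact Poisson intervals. Ratios carry exact conditional binomial intervals (python 3.11.15, pandas 2.3.3, numpy 2.4.6, scipy 1.17.1), tested on simulated data. Lower or higher means at least 2-fold with an interval that excludes 1, among genes listed in both files with at least 50 UMIs. A count of 0 was to be taken as 3. TMM factors came from edgeR 4.0.16 in R 4.3.3. Named genes were the 10 members with most UMIs, the called members with the 6 most extreme ratios each way in a compartment and 3 in a class, and 3 of the other pathway genes. Of members outside this rule, those named for a contrast between classes were chosen after their values were seen. The members and lists were chosen with earlier results of these data known. In all, 13 alternatives were planned and 1 was added after the data were seen. One gene that the rule for pathway genes selects is not reported here.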

Additional observations from a re-analysis of the deposited data

Results flagged for a closer look

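Rsad2, the gene of viperin, differed in direction between cell classes. Its log2 ratio of labelled knockout over wild type was 1.51 in epithelial cells and -2.15 in neutrophils, a gap of 3.66. Slfn2 likewise had log2 ratios of 2.27 in smooth muscle cells and pericytes and -1.08 in endothelial cells, a gap of 3.35. Both stand out because the single library of a group moves one way in one class and the opposite way in the other. With 1 library per group the differences were not tested. The Rsad2 value in epithelium rests on 26 UMIs in 70 cells, mostly of the enteroendocrine cluster, and that of Slfn2 in smooth muscle on 6 and 89 UMIs, a count that cannot be told apart from free RNA here.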

How the results depend on the processing

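No paired analysis was possible because the groups share only 1 replicate number. The log2 ratios of the summed members were -1.42 in epithelial, -1.72 in stromal, -1.49 in endothelial, -0.26 in myeloid and -0.46 in lymphoid cells, with 32, 29, 22, 18 and 8 members lower. Under TMM scaling they were -1.78, -1.35, -1.29, 0.14 (the myeloid direction reversed) and -0.35, with 7 members lower in myeloid and 5 in lymphoid cells. Without immunoglobulin, mitochondrial, ribosomal and haemoglobin genes in the denominator they were -1.52 in epithelial, -1.68 in stromal, -0.31 in myeloid and -0.24 in lymphoid cells, with 4 lymphoid members lower. With each cell weighted equally they were -1.78 in stromal, -0.35 in myeloid and -0.30 in lymphoid cells, with 4 lymphoid members lower, and Parp9 in epithelium reversed to 0.34. Thinning gave -1.78 in stromal, -0.31 in myeloid and -0.28 in lymphoid cells, and counts of 12 in epithelial, 15 in stromal, 5 in endothelial and 1 in lymphoid cells, with fewer genes above 50 UMIs. With doublets kept the sums were -1.57 in epithelial, -1.67 in stromal and -0.34 in myeloid cells. With the free RNA bound subtracted they were -1.77 in stromal and -0.22 in myeloid cells, and at resolution 2 -0.52 in lymphoid cells. Without the member with most UMIs they were -1.31 in epithelial, -0.99 in stromal, -0.78 in myeloid and -0.32 in lymphoid cells. With both libraries weighted to the same makeup of clusters they were -0.52 in epithelial cells (1 cluster), -1.10 in stromal and -0.45 in myeloid cells. Without Ifi27l2a, Slfn2 and Lgals3bp, an alternative chosen after seeing the data, they were -2.00, -1.52, -1.64, -0.73 and -0.53. Counts of lower members under the alternatives are given without the number of members tested or the share over all genes. These counts therefore cannot show whether the difference of the members from other genes was kept. The causes were not tested. Of 974 values of single members under these alternatives, 880 moved by less than their counting interval, 93 moved further and 1 reversed. Of 132 summed ratios, 76 moved by less than their counting interval, 55 moved further and 1 reversed. Depth limits the 70 epithelial cells of the labelled-knockout library, where the lowest members rest on 1 to 3 UMIs, and the 17 endothelial members under 50 UMIs.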

Other observations

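Glial and neuronal cells, 33 and 55, had summed levels of the 45 members of 2636 CPM (2393 to 2897) and 1389 CPM (1241 to 1551), or 1.90-fold lower (1.64 to 2.20) in the labelled-knockout library. Erythroid cells, 44 and 99, had 1165 CPM (1064 to 1274) and 978 CPM (905 to 1056), whose intervals do not overlap, and a ratio of 1.19-fold lower (1.06 to 1.34). The highest number of members read in 1 cell at 1000 UMIs was 21, in the wild-type library, and 15 in the other.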
